A study of Mus musculus with 30 samples.

Results

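*Id1*, *Id2*, *Id3* and *Id4* are the mouse genes of the Id family, and their RNA was followed in stem cells and otic progenitors that received the hair cell factor Atoh1, the miR-183 family or both. They were the transcript clusters of the array annotated with 1 of these 4 symbols alone. Each gene had 1 such cluster (17377778, 17280310, 17420016 and 17287081 in the order above), which gave 4 of the 41345 clusters on the array, of which 25341 carried a symbol and were tested. The genes lie on chromosomes 2, 12, 4 and 13.

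Id proteins hold a helix-loop-helix domain but no basic region, so they dimerise without binding DNA. Their main partners are the E proteins (*Tcf3*, *Tcf4* and *Tcf12* encode them), which proneural factors such as Atoh1 need to bind the E-box, and an Id protein that takes up an E protein keeps it from the proneural factor. Bone morphogenetic proteins (BMPs) induce Id genes through Smad proteins, in mouse embryonic stem cells Id proteins help to hold back differentiation, and in the developing cochlea Id genes are expressed in the progenitor field and become low in hair cells.

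The series held 30 mouse arrays in 10 groups of 3 samples, from 2 lines in 5 conditions each. Mouse embryonic stem cells (mESCs, line ES-D3, kept on arrested embryonic fibroblasts with serum and leukemia inhibitory factor) and iMOP cells (1 clone of embryonic cochlear progenitors immortalised by transient c-Myc, grown with fibroblast growth factor) were left untransfected (UT) or received a plasmid and were sorted for red fluorescence after 48 h. All plasmids carried the tandem dimer Tomato red fluorescent protein (RFP). pT had RFP alone, pAT added Myc-tagged murine Atoh1, p183T added *miR-183*, *miR-96* and *miR-182*, and p183AT added both, so pT is the control that shares vector, transfection and sorting with the others. The labels call the samples of a group distinct biological samples and do not say how the cultures were separated. Sorting is not described for UT cells, and transfection reagent and handling after sorting differed between the lines.

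Array medians lay between log2 4.37 and 4.69 and replicate arrays correlated at 0.975 to 0.993 (values are RMA signals on the log2 scale, so a difference of 1 is a doubling). Between the untreated lines all 7 stem cell markers were lower in iMOP cells, and of 6 measured otic markers 5 were higher and 1, *Gata3* (5.14 in mESC UT and 4.60 in iMOP UT), was lower. *Nanog* averaged 10.79 in mESC UT and 4.30 in iMOP UT, and the otic gene *Dlx5* 3.48 and 8.86. *Atoh1* itself was higher with its vectors, at 6.01 in mESC pAT against 5.0 in pT (adjusted p = 0.00493 in limma) and at 6.42 in iMOP pAT against 5.38 (adjusted p = 0.066), and over both backgrounds together it rose in iMOP cells by 1.25 (adjusted p = 8.3e-05). In iMOP cells *Atoh1* was also higher with pT, which carries no Atoh1, at 5.38 against 4.78 in UT (adjusted p = 0.0146 in limma). There 41.3% of all clusters were called. In mESCs the difference between pT and UT was 0.23 (adjusted p = 0.421). The hair cell factor *Pou4f3* had group means between 4.54 and 5.26.

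Atoh1 acts at E-boxes, so the promoters of the Id genes are shown as far as the reference table holds them (RefSeq, build GRCm38.p6, 250 bases before to 50 after the start site, for 3 of the 4 genes; *Id1* was not matched). *Id2* and *Id3* are printed because they moved apart between the lines. Capitals mark matches to CAGCTG, the E-box core with which Atoh1 is often found, to CANNTG, the general E-box, which includes the former, or to GGCGCC, a core bound by BMP Smads. Each motif reads the same on both strands.
*Id2*, chr12:25096043-25096342, minus strand: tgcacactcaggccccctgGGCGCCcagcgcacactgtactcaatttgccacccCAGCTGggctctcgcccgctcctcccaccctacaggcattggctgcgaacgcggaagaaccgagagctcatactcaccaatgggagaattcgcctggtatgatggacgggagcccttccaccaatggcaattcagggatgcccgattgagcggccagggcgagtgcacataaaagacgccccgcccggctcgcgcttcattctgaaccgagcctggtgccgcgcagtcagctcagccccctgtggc
*Id3*, chr4:136143572-136143871, plus strand: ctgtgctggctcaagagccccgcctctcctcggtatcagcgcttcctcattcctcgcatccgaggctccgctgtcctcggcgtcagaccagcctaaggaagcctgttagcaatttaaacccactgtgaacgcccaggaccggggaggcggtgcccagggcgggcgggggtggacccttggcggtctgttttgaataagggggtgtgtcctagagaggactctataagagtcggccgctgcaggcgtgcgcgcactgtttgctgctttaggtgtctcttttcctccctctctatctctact
The *Id2* window held 1 CAGCTG, at position -196 from the start site, and 1 GGCGCC, at -231. The *Id3* window held none of the 3 motifs, and that of *Id4* (chr13:48260866-48261165) held 1 GGCGCC, at -148, and no E-box. Among 32851 promoters of the same length, 16.3% held CAGCTG, 72.3% held CANNTG and 11.9% held GGCGCC. These are letter matches in a short window, and binding was not measured in these samples.

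*Id2* had the widest range of group means of the 4 genes. In mESCs its signal was 8.04, 7.94 and 7.58 on the UT arrays, 8.80, 8.95 and 9.31 with pT, and 8.58, 8.95 and 9.14 with p183T. With Atoh1 it was 10.15, 10.14 and 10.33 in pAT and 9.77, 10.49 and 10.27 in p183AT, so 3 levels that did not overlap were seen, UT below both groups without Atoh1 and these below both groups with it. In iMOP cells the order was another: UT arrays gave 7.0, 7.83 and 7.75, pT 7.41, 7.0 and 7.11, and p183T 7.40, 6.77 and 6.78. The Atoh1 groups were the lowest, with 6.11, 6.51 and 6.73 in pAT and 6.30, 6.22 and 6.55 in p183AT, below every other iMOP array.

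*Id1* fell into a high and a low set of groups in each line. In mESCs the UT arrays gave 6.28, 6.34 and 5.88, pT 6.40, 6.11 and 6.61, and p183T 5.92, 6.47 and 6.39, ranges that overlapped. The Atoh1 groups stood apart, with 7.48, 7.63 and 7.53 in pAT and 7.51, 7.63 and 7.56 in p183AT. In iMOP cells the low set was UT alone, at 6.54, 6.10 and 6.43, and all transfected groups were above it and overlapped one another, at 6.90, 7.62 and 7.29 with pT, 6.83, 7.24 and 7.52 with pAT, 7.11, 7.13 and 7.01 with p183T and 7.01, 6.94 and 7.39 with p183AT.

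*Id3* was highest in iMOP cells that carried a vector without Atoh1. There the arrays gave 7.93, 7.75 and 7.21 with pT and 7.82, 7.48 and 7.26 with p183T, above iMOP UT (6.35, 7.14 and 6.82) and iMOP pAT (6.59, 6.61 and 6.74). In iMOP p183AT replicate 1 stood apart at 7.49, while the others gave 6.34 and 6.16. In mESCs *Id3* was 5.52, 6.11 and 5.63 in UT, 5.70, 5.74 and 6.62 with pT and 5.33, 5.85 and 6.51 with p183T, and replicate 3 of both groups reached the level of, or close to, the Atoh1 groups (6.61, 6.77 and 6.72 in pAT, 6.79, 6.92 and 6.84 in p183AT).

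*Id4*, which in mouse is best known from neural progenitors, was lowest in untransfected mESCs. In mESCs the UT arrays (5.04, 5.33 and 5.17) were below all transfected arrays, which gave 5.66, 5.70 and 5.79 with pT, 5.82, 5.71 and 5.97 with pAT, 5.50, 5.56 and 5.78 with p183T and 6.35, 6.01 and 5.91 with p183AT. In iMOP cells the lowest array was UT replicate 1, at 5.50 beside 6.16 and 6.18, and the highest p183T replicate 1, at 7.07 beside 6.17 and 6.46. pT gave 6.52, 6.18 and 6.0, pAT 6.18, 6.22 and 6.18, and p183AT 6.10, 6.11 and 5.91, and pAT and p183AT did not overlap although their means differed by only 0.16.

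**Figure D1:**
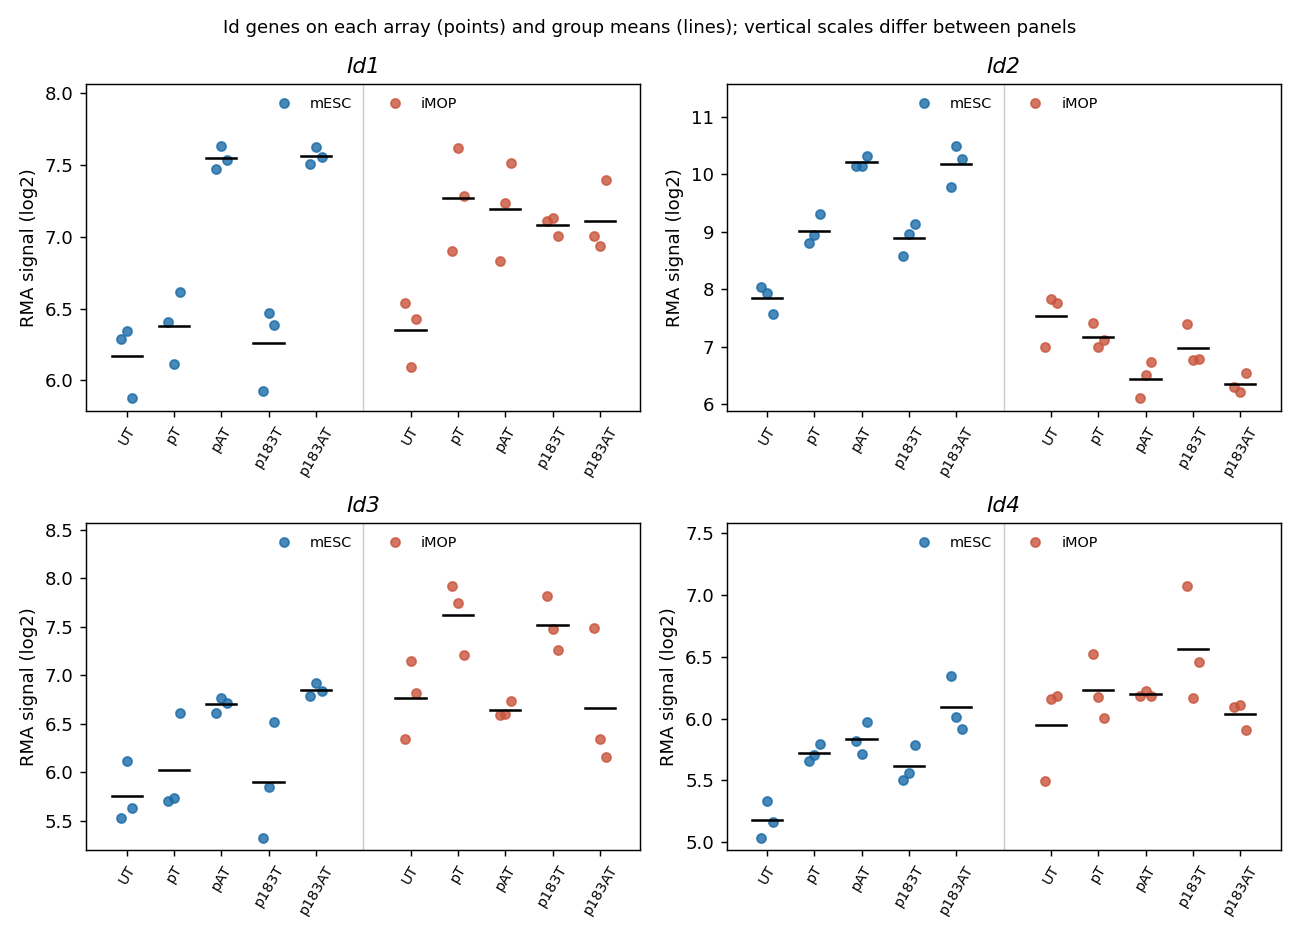
RMA signal (log2, vertical axis) of each Id gene on each of the 30 arrays (points) with the mean of each group of 3 (lines), mESC in blue and iMOP in red, with a vertical scale of its own in each panel. In mESCs *Id1* and *Id2* are higher in both groups with Atoh1 (pAT and p183AT, means of 7.55 and 7.56 for *Id1* and of 10.21 and 10.18 for *Id2*) than in any other mESC group, and in iMOP cells *Id2* is lowest in these groups (6.45 and 6.35).

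Ordered by mean over all 10 groups, *Id2* ran from 10.21 ± 0.10 (SD, n = 3) in mESC pAT to 6.35 ± 0.17 in iMOP p183AT, with all 5 mESC groups above all 5 iMOP groups. Breaks between neighbours that did not overlap lay below mESC p183AT, below mESC p183T and below iMOP p183T. *Id3* ran from 7.63 ± 0.38 in iMOP pT to 5.76 ± 0.31 in mESC UT, with a single break, below iMOP p183T. *Id1* had its single break between iMOP p183T (7.08 ± 0.07) and mESC pT (6.38 ± 0.25), and *Id4* its single break between mESC p183T (5.62 ± 0.15) and mESC UT (5.18 ± 0.15). No group mean of an Id gene was under log2 5, the level under which a cluster was taken as dim. Under log2 6, the level of the setting that left out dim clusters, lay *Id4* in iMOP UT (5.95) and in every mESC group but p183AT (5.18 to 5.83). *Id3* in mESC UT and p183T (5.76 and 5.90) lay there too. Signals of different genes were not set against each other because probes differ in brightness. In RNA from whole populations, fewer expressing cells and less RNA per cell cannot be told apart.

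To see how the lines differed before any vector, UT cells were compared. *Id3* was higher in iMOP cells by 1.01 ± 0.21 (log2 difference ± SE, 2.02-fold, adjusted p = 0.00204 in limma) and *Id4* by 0.77 ± 0.19 (1.70-fold, adjusted p = 0.00484). *Id1* (0.18 ± 0.17) and *Id2* (-0.33 ± 0.22) did not pass the threshold. A total of 57.5% of all tested clusters passed it here, so 2 of 4 Id genes is no more than the background share. The median of all clusters was -0.20 in this comparison and 0.0051 after quantile normalization, with which the *Id2* difference was 0.0069.

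The BMP and E protein genes were compared between the same groups, where 57.5% of all clusters were called. Of these, 9922 were lower and 4640 higher in iMOP cells with the deposited values, and 6901 were lower and 7104 higher after quantile normalization. Counts by direction are to be read beside this split. *Bmp4*, a ligand that induces Id genes, averaged 8.71 in mESC UT and 3.80, under the dim level, in iMOP UT, and fell by 4.91 from mESCs to iMOP cells (adjusted p = 3.98e-09). Of 11 BMP ligands 6 were lower and 1, *Bmp7* (higher by 1.85), was higher in iMOP cells, with a median of -0.42, whereas 8 of 10 BMP receptors and Smads were higher and 1 was lower (median 0.65), among them the receptors *Bmpr1b* by 2.88 and *Bmpr2* by 1.27. Of 9 measured BMP-induced genes other than Id genes, 7 were lower and 2 higher (median -0.92), with the inhibitory Smad *Smad7* lower at 4.62 against 8.67. All 3 E protein genes, which encode the partners of Id proteins, were higher in iMOP cells, *Tcf12* by 3.43, *Tcf4* by 2.76 and *Tcf3* by 0.65.

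The change from UT to pT gives what transfection, RFP and sorting did before Atoh1 is considered, and these cannot be told apart. In mESCs *Id2* rose by 1.17 ± 0.20 (2.25-fold, adjusted p = 0.00074) and *Id4* by 0.54 ± 0.13 (1.45-fold, adjusted p = 0.0119), with no overlap between pT and UT arrays, while *Id1* (0.21 ± 0.16) and *Id3* (0.26 ± 0.27) did not pass. The background share in this comparison was 13.1%. In iMOP cells the other pair of genes moved: *Id1* rose by 0.92 ± 0.20 (1.89-fold, adjusted p = 0.00101) and *Id3* by 0.86 ± 0.28 (1.81-fold, adjusted p = 0.0196), and *Id2* (-0.36 ± 0.22) and *Id4* (0.29 ± 0.21) did not pass. There 41.3% of all clusters passed, so the count of 2 of 4 is near the background.

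Tested directly, the pT response of *Id2* was lower in iMOP cells than in mESCs by 1.52 ± 0.31 (iMOP minus mESC, -1.52, adjusted p = 0.000327) and that of *Id1* higher by 0.71 ± 0.26 (adjusted p = 0.0374). *Id3* (0.59 ± 0.41) and *Id4* (-0.25 ± 0.26) did not pass, and 35.6% of all clusters did. The call of *Id1* was lost without any 1 of mESC UT replicate 1 or 2, mESC pT replicate 1 or 2, iMOP UT replicate 2 and iMOP pT replicate 2 or 3 (adjusted p up to 0.138). The iMOP rise of *Id3* was lost without UT replicate 1 or pT replicate 1 or 2 (0.65 and adjusted p = 0.109 without UT replicate 1), and without UT replicate 1 the *Id2* value was -0.62 with adjusted p = 0.0317. The mESC rise of *Id4* was lost without UT replicate 1 (0.47, adjusted p = 0.0527).

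*Bmp4*, *Tcf4* and *Tcf12* also changed between UT and pT, in opposite directions in the 2 lines, among background shares of 13.1% of clusters in mESCs and 41.3% in iMOP cells. In mESCs, where *Id2* rose, *Bmp4* fell by 1.63 ± 0.18 (adjusted p = 1.87e-05) and *Bmp7* rose by 1.26, and 0 of 9 other BMP-induced genes passed in limma (3 had an unadjusted p under 0.05). In iMOP cells *Bmp4* rose by 0.49 to a mean of 4.29, still under the dim level, 7 of 10 BMP receptors and Smads fell (*Bmpr2* by 1.39, median of the list -0.80 beside 0.09 for all clusters) and 6 of 9 BMP-induced genes rose, among them *Atoh8* by 1.08. *Msx2* (0.70) and *Tfap2c* (0.53), also among these BMP-induced genes, stayed under the dim level, at means of 3.57 and 3.64 in iMOP pT. The E protein genes *Tcf12* and *Tcf4* rose in mESCs (0.62 and 0.54) and fell in iMOP cells (by 1.49 and 1.43), where *Tcf3* rose by 0.87. In mESCs *Tcf3* was at 0.29 (adjusted p = 0.342), and its difference between the lines did not pass (0.58, adjusted p = 0.072). Many Hes and Hey repressors are Notch-regulated factors that also oppose proneural genes, whereas *Hes6* antagonises Hes1. Of 10 members of this list 2 were called as higher in mESCs, *Hes1* (0.69) and *Hes6* (0.74). In iMOP cells 6 of 10 were, led by *Hes5* (2.45) and *Hes6* (1.05).

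**Figure D2:**
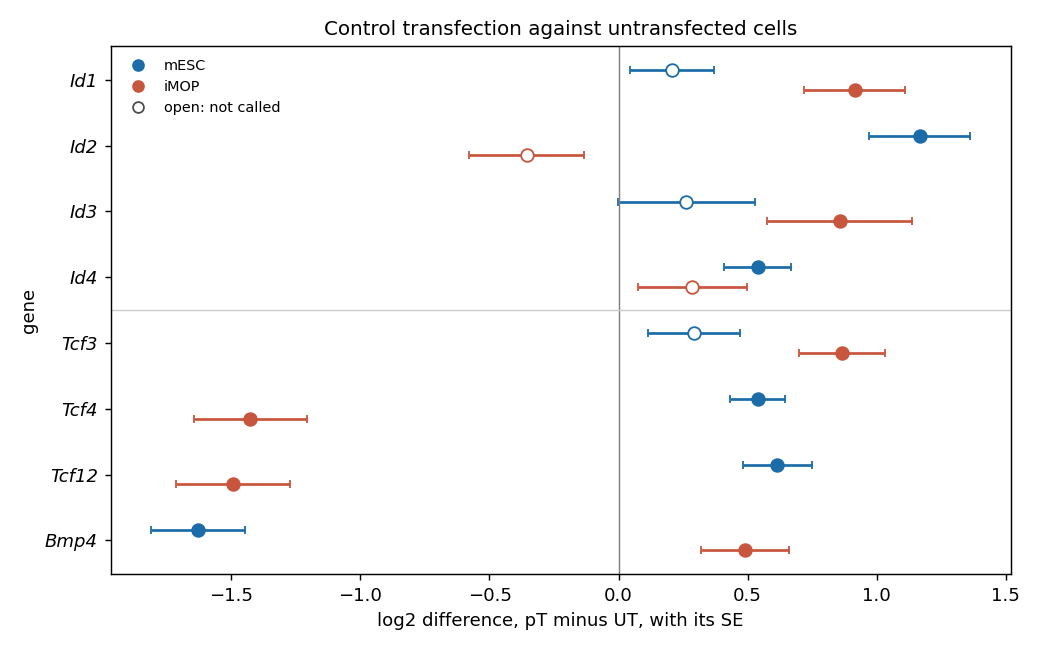
Difference between pT and UT (log2, horizontal axis, bars give the SE) for the 4 Id genes, the 3 E protein genes and *Bmp4*, mESC in blue and iMOP in red, filled where the adjusted p was under 0.05. *Id2* is at 1.17 in mESCs and -0.36 in iMOP cells, and *Tcf4*, *Tcf12* and *Bmp4* lie on opposite sides of 0 in the 2 lines.

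Cell type markers in these groups were as follows. In mESCs the mean of 7 stem cell markers went from 9.20 in UT to 8.86 in pT (arrays 9.19 to 9.21 and 8.75 to 8.96), while the mean of 9 fibroblast markers was 4.59 and 4.58, with 5 of them under log2 5 in both groups. Members of the fibroblast list went both ways under this mean. *Pdgfrb* rose by 0.70 (adjusted p = 0.00153 in limma), the only 1 of 9 called beside 13.1% of all clusters, and *Col1a1* went from 6.21 to 5.76. The mean of 7 neuron markers was 6.13 and 5.85 in mESCs, where *Stmn2* fell by 1.10, and 6.38 and 6.08 in iMOP cells, where the arrays overlapped (6.28 to 6.46 in UT and 5.86 to 6.30 in pT). In iMOP cells its members went both ways, as *Tubb3* rose by 1.29 (adjusted p = 3.6e-05) while *Dcx* fell by 1.35 and *Map2* by 1.49. The mean of 6 hair cell markers was 4.59 and 5.05 in iMOP cells, with 5 of them under log2 5 in UT and 4 in pT. Of the 6, 4 were called as higher, where 41.3% of all clusters were called. In the same comparison 3 of 7 stem cell markers were called as higher and 0 as lower, with list means of 4.24 in UT and 4.55 in pT. Of 6 measured otic markers 2 were called as higher, *Dlx5* (1.03) and *Gata3* (0.43), and 1 as lower, *Eya1* (-0.80). The part of these marker changes in the Id values was not tested.

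In mESCs Atoh1 was followed by higher *Id1* and *Id2*, and this held on both backgrounds, with and without the miR-183 family. From pT to pAT *Id1* rose by 1.17 ± 0.16 (2.25-fold, adjusted p = 0.00161) and *Id2* by 1.19 ± 0.20 (2.28-fold, adjusted p = 0.00624). From p183T to p183AT *Id1* rose by 1.3 ± 0.16 (2.47-fold, adjusted p = 0.000609) and *Id2* by 1.29 ± 0.20 (2.44-fold, adjusted p = 0.00301). All 3 arrays of each Atoh1 group were above all 3 of its control. The background shares were 0.797% and 1.16% of clusters, against 2 of 4 Id genes in both. *Id3* was higher by 0.68 ± 0.27 (adjusted p = 0.449) and 0.96 ± 0.27 (adjusted p = 0.125) and *Id4* by 0.12 ± 0.13 (adjusted p = 0.908) and 0.47 ± 0.13 (adjusted p = 0.12), none past the threshold, although in the latter comparison *Id3* passed without p183T replicate 3 (1.26, adjusted p = 0.0298) and *Id4* with dim clusters left out (0.47, adjusted p = 0.0491). With adjustment, the methods' test called neither *Id1* nor *Id2* from pT to pAT (adjusted p = 0.228 and 0.244) or from p183T to p183AT (adjusted p = 0.308 and 0.464).

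p183AT was also set against pT, a comparison that shares the pT arrays with the above. *Id1* rose by 1.19 ± 0.16 (adjusted p = 0.00134) and *Id2* by 1.16 ± 0.20 (adjusted p = 0.00708), and *Id3* (0.83 ± 0.27) and *Id4* (0.37 ± 0.13) did not pass, where the background was 1.05%. With only the compared arrays in the fit, *Id2* missed the threshold in p183AT against p183T (adjusted p = 0.0514) and against pT (adjusted p = 0.0825).

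Since both Atoh1 groups gave like values, the response was also averaged over both backgrounds (pAT and p183AT against pT and p183T), a comparison added after these results had been seen. In mESCs *Id1* rose by 1.24 ± 0.12 (95% interval 0.99 to 1.48, adjusted p = 1.26e-05), *Id2* by 1.24 ± 0.14 (0.94 to 1.53, adjusted p = 6.33e-05) and *Id3* by 0.82 ± 0.19 (0.42 to 1.22, adjusted p = 0.0265), and *Id4* was at 0.30 ± 0.09 (adjusted p = 0.118). The background share was 2.9%. The *Id3* call was lost without any 1 of replicates 1 and 2 of pT, 2 and 3 of pAT, 1 and 2 of p183T and 1 and 2 of p183AT (adjusted p 0.0501 to 0.0793).

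In iMOP cells no Id gene passed the threshold after Atoh1, and few genes of any kind did. From pT to pAT *Id3* was lower by 0.98 ± 0.28 on the log2 scale (pAT minus pT -0.98, unadjusted p = 0.00247, adjusted p = 0.404 in limma) and *Id2* by 0.73 ± 0.22 (-0.73, unadjusted p = 0.00425, adjusted p = 0.462), and for both genes the 3 pAT arrays were below the 3 pT arrays. *Id1* (-0.07 ± 0.20) and *Id4* (-0.04 ± 0.21) were close to 0. Only 0.0197% of clusters, 5 in all, were called, and 1696 had an unadjusted p under 0.05.

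From p183T to p183AT the differences were -0.63 ± 0.22 for *Id2* (adjusted p = 0.789), -0.86 ± 0.28 for *Id3* (adjusted p = 0.673), -0.53 ± 0.21 for *Id4* (adjusted p = 0.861) and 0.03 ± 0.20 for *Id1*, with 0.0829% of clusters called. Against pT, p183AT gave -0.82 ± 0.22 for *Id2* (adjusted p = 0.339) and -0.96 ± 0.28 for *Id3* (adjusted p = 0.47), with 0.138% called. Without p183AT replicate 1, the array on which *Id3* was 7.49, the latter was -1.37 with adjusted p = 0.0225. The methods' own thresholds, a fold of at least 1.5 with an unadjusted p under 0.05, took in *Id2* and *Id3* for pAT against pT and *Id2* for p183AT against pT.

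Averaged over both backgrounds, *Id3* was at -0.92 ± 0.20 in iMOP cells (1.89-fold lower, 95% interval -1.33 to -0.50, adjusted p = 0.0543) and *Id2* at -0.68 ± 0.16 (1.60-fold lower, -1.01 to -0.35, adjusted p = 0.0753). *Id4* was at -0.28 ± 0.15 (adjusted p = 0.621) and *Id1* at -0.02 ± 0.14, with an interval of -0.31 to 0.27 that leaves out a change of the size seen in mESCs. The background share was 0.331%. The values of *Id2* and *Id3* lay close to the threshold and passed it in 3 and 6 of 18 alternative settings, *Id3* among them with a replicate block (adjusted p = 0.0326), without pT replicate 3 (adjusted p = 0.0454) and without p183AT replicate 1 (adjusted p = 0.00211).

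**Figure D3:**
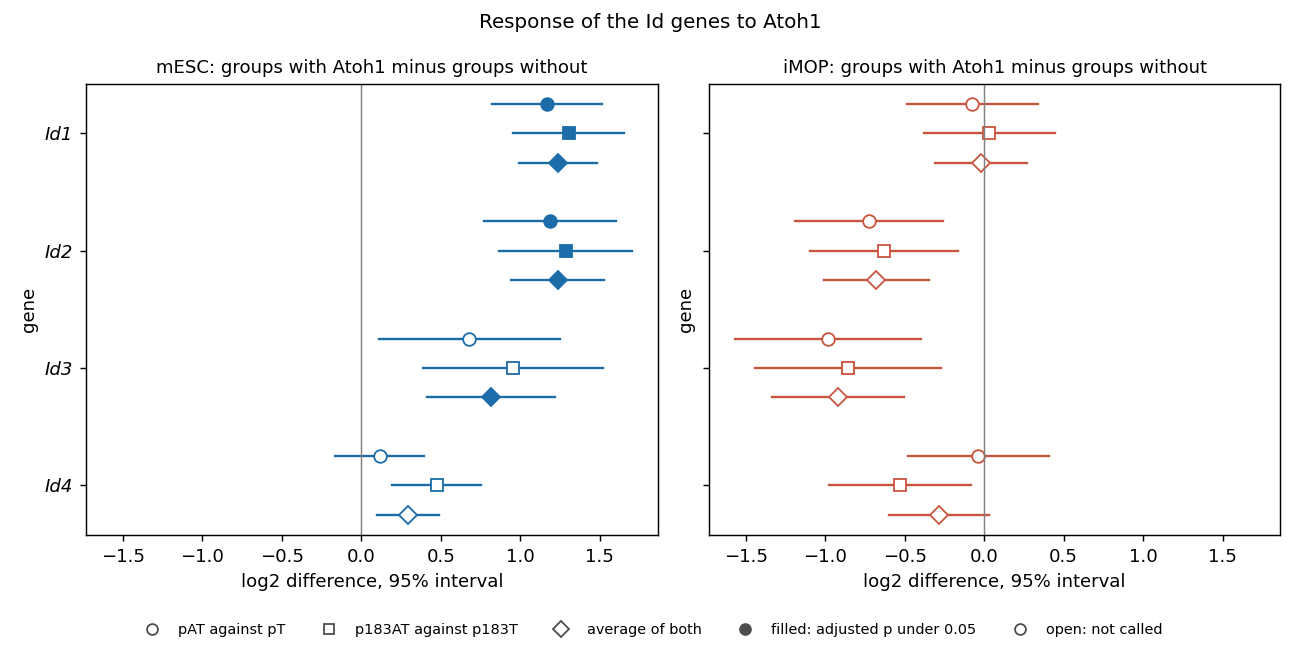
Log2 difference between groups with and without Atoh1 (horizontal axis, lines give the 95% interval) for each Id gene in mESCs (left) and iMOP cells (right), without the miR-183 family (circles), with it (squares) and averaged (diamonds), filled where the adjusted p was under 0.05. *Id2* lies at 1.19 and 1.29 in mESCs and at -0.73 and -0.63 in iMOP cells, and *Id1* at 1.17 and 1.3 in mESCs and at -0.07 and 0.03 in iMOP cells.

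The difference between the lines was tested itself, as the iMOP response minus the mESC response. Without the miR-183 family *Id2* differed by -1.91 ± 0.31 (adjusted p = 0.0016) and *Id1* by -1.24 ± 0.26 (adjusted p = 0.0268), and *Id3*, at -1.66 ± 0.41, had an adjusted p of 0.0712, with 0.312% of clusters called. With the miR-183 family *Id2* differed by -1.91 ± 0.31 (adjusted p = 0.00131), *Id1* by -1.27 ± 0.26 (adjusted p = 0.0186) and *Id3* by -1.81 ± 0.41 (adjusted p = 0.0386), with 0.335% called. *Id4* was at -0.15 ± 0.26 and -1.0 ± 0.26 and did not pass in either. The 2 differences rest on separate sets of 12 arrays, with the spread estimated from all 30.

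Averaged over both backgrounds the lines differed in *Id2* by -1.91 ± 0.22 (adjusted p = 2.27e-06, the 15th smallest p of all clusters), in *Id3* by -1.74 ± 0.29 (adjusted p = 0.000582) and in *Id1* by -1.26 ± 0.19 (adjusted p = 0.000121), and *Id4*, at -0.58 ± 0.18, did not pass (adjusted p = 0.142). The background share was 1.39%, and these 3 calls were made in all 29 alternative settings of this comparison. On the single backgrounds *Id2* was called in 17 of 17 settings each time. *Id1* was called in 7 of 17 and 12 of 17 and *Id3* in 3 of 17 and 7 of 17. Without the miR-183 family the *Id1* call was lost without any 1 of mESC pT replicate 1 or 2, mESC pAT replicate 2 or 3, iMOP pT replicate 2 or 3 and iMOP pAT replicate 1 or 2 (adjusted p up to 0.121), and *Id3* was called without mESC pT replicate 3 (adjusted p = 0.0207). With it the *Id1* call was lost without any 1 of mESC p183T replicate 1, iMOP p183T replicate 2 and iMOP p183AT replicate 1 or 2 (up to 0.0898). The *Id3* call was lost without any mESC p183AT array, mESC p183T replicate 1 or 2, iMOP p183T replicate 1 or 2 or iMOP p183AT replicate 2 or 3 (up to 0.162), and *Id4* was called without iMOP p183T replicate 2 (-1.20, adjusted p = 0.0327).

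Side by side, *Id2* and *Id3* had values of opposite sign in the 2 lines, *Id1* rose in mESCs and was near 0 in iMOP cells, and *Id4* passed for Atoh1 in none of these comparisons with all arrays and clusters in the fit. The start levels differed too: *Id2* in pT was 9.02 ± 0.26 in mESCs and 7.17 ± 0.21 in iMOP cells, and *Id3* was 6.02 ± 0.52 and 7.63 ± 0.38, so that after Atoh1 *Id3* was at nearly the same level in both lines (6.70 ± 0.08 in mESC pAT and 6.65 ± 0.08 in iMOP pAT).

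The BMP and E protein lists were read against the same background shares, 0.797% and 1.16% of clusters in mESCs and 0.0197% and 0.0829% in iMOP cells. Of 3 E protein genes, 11 BMP ligands, 10 BMP receptors and Smads, 8 measured antagonists and 9 measured BMP-induced genes, 0 passed in limma from pT to pAT in either line, and 0 from p183T to p183AT. Of these 41 genes, 6 and 13 had an unadjusted p under 0.05 in mESCs and 1 and 3 in iMOP cells, beside 2111 and 2955 of all 25341 clusters in mESCs and 1696 and 1392 in iMOP cells, and the methods' test with adjustment called 0 in each. The 13 in mESCs were 5 ligands, 4 receptors and Smads, 2 BMP-induced genes, 1 antagonist and 1 E protein gene. There the median of the receptors and Smads was 0.23 and that of the ligands 0.08, beside 0.01 for all clusters. In mESC p183AT against pT, where 1.05% of all clusters were called, 1 of the 41 passed in limma. This was the ligand *Bmp5*, which rose by 0.55 (adjusted p = 0.0198), to a mean of 3.86. Averaged over both backgrounds in mESCs, 2 of the 41 passed, beside 2.9% of all clusters: *Bmp7* fell by 0.42 (adjusted p = 0.0215) and the antagonist *Fstl1* rose by 0.32 (adjusted p = 0.04), and *Bmp4* was at -0.44 (adjusted p = 0.0894). There 15 of the 41 had an unadjusted p under 0.05 in limma, beside 3744 of all 25341 clusters. *Bmp4* was at -0.48 ± 0.18 (adjusted p = 0.421) in mESCs and at -0.07 ± 0.17 in iMOP cells from pT to pAT, and *Tcf12*, *Tcf4* and *Tcf3* lay between -0.01 and 0.13 in mESCs and between 0.11 and 0.26 in iMOP cells. In mESCs the Hes family had 1 of 10 members called on each background, *Hes6*, which antagonises Hes1 and is induced by proneural factors, with rises of 1.74 and 1.87. In iMOP cells *Helt* rose by 1.17 from pT to pAT, and 0 of 10 members of its list were called from p183T to p183AT. Of 16 measured proneural and neuronal factors 0 were called from pT to pAT. From p183T to p183AT 2 were called, *Nhlh1* (1.42) and *Atoh1* (1.45). Averaged over both backgrounds *Helt* was at 0.77 and *Nhlh1* at 0.95 (adjusted p = 0.0142 and 0.0114 in limma). The vector p183AT carries *Atoh1*, so the rise of *Atoh1* was set by the design.

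Within a line, the only cell type markers called with Atoh1 were stem cell markers in mESCs, all lower. In mESCs the 7 stem cell markers averaged 8.86 in pT and 8.50 in pAT (arrays 8.75 to 8.96 and 8.42 to 8.60), and the 9 fibroblast markers 4.58 and 4.63. From pT to pAT 1 of the 7 stem cell markers was called, *Tfcp2l1* (-0.64, adjusted p = 0.00493 in limma), beside 0.797% of all clusters. From p183T to p183AT 2 of 7 were called (*Tfcp2l1*, lower by 0.46, and *Zfp42*, by 0.54), beside 1.16%. Averaged over both backgrounds 3 of 7 were called, these 2 and *Nanog* (lower by 0.36), beside 2.9%. In iMOP cells the 7 neuron markers averaged 6.08 in pT and 6.39 in pAT, where the arrays overlapped (5.86 to 6.30 and 6.20 to 6.54), and 6.09 in p183T and 6.43 in p183AT, where the arrays did not overlap (5.97 to 6.17 and 6.38 to 6.48). The 6 hair cell markers were at 5.05 and 5.10 in iMOP pT and pAT. In iMOP cells 0 of 7 neuron markers passed in limma on either background (1 and 4 had an unadjusted p under 0.05), and 0 of 6 hair cell markers (0 and 1). Their part in the Id values was not tested.

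The miR-183 family was followed by no called change of an Id gene (limma, lowest unadjusted p = 0.069, and none by the methods' test). From pT to p183T the 4 differences lay between -0.13 and -0.10 in mESCs and between -0.19 and 0.33 in iMOP cells, and from pAT to p183AT between -0.03 and 0.26 in mESCs and between -0.16 and 0.02 in iMOP cells. In each of these 4 comparisons 0.0118% of clusters, 3 in all, were called. The line difference for p183T against pT gave 0 calls in limma (0% of clusters, with 736 at an unadjusted p under 0.05). For *Id2* the 95% intervals of these comparisons lay within -0.66 and 0.39, so a change of the size seen with Atoh1 in mESCs was outside them.

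Across the 15 arrays of a line, the Id genes went together in mESCs and less so in iMOP cells. In mESCs Pearson's r between pairs ran from 0.73 (*Id1* and *Id4*) to 0.91 (*Id1* and *Id2*). In iMOP cells it ran from -0.46 (*Id1* and *Id2*) to 0.64 (*Id3* and *Id4*). The points share groups and vectors, so these values describe the arrays and carry no test.

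The genes most like each Id gene were taken as the 5 with the highest r over the 30 arrays after the mean of each line was subtracted, among 10492 single-symbol clusters. For *Id1* they were *Pim2*, a serine/threonine kinase (0.94), *Pxdc1*, *Hes6*, *Flnc* and *Foxi3*, a forkhead factor of the otic placode (0.87). For *Id2* they were *Stc2*, a secreted glycoprotein (0.89), *Slc22a23*, *Efnb2*, an ephrin ligand, *Mpzl1* and *Fgf5*, a marker of the primed epiblast (0.88 over all arrays, 0.98 in mESCs and 0.46 in iMOP cells). *Id3* (*Fads3*, *Srd5a3*, *Tead3*, *Lhpp* and *B3gnt7*, 0.71 to 0.72) and *Id4* (*Rnf122*, *Zswim4*, *Lhpp*, *Tead3* and *Btg2*, 0.76 to 0.78) had less close neighbours, of which *Lhpp* and *Tead3* stood in both sets. These values carry no test and say nothing of shared control.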

How the data were processed

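RNA of 30 samples was measured on Affymetrix Mouse Gene 2.0 ST arrays after labelling with the WT PLUS kit. The submitters' processing notes name RMA and the software Affymetrix Expression Console, version 1.4.1.46, and the authors' deposited values are log2 signals. No source used here says which arrays RMA took together. All 30 columns had a sample, and 0 were left over. The number of arrays limits the precision.

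Values were used as deposited. Symbols came from GEO's platform annotation: of 41345 clusters, 23521 carried 1 symbol, 1820 several and 16004 none (these were not tested). Linear models were fitted with the limma package (3.58.1, under R 4.3.3) and moderated with eBayes, with Benjamini-Hochberg adjustment over 25341 clusters and a threshold of 0.05, which is what called and passed mean. UT lines were compared in a fit of 6 arrays, groups of a line in a fit of 15 and responses between lines in a fit of 30. The fit was tested on simulated data. An alternative was the methods' test of 2 groups at a time, adjusted or at the thresholds of the methods (a fold of at least 1.5 and p under 0.05, with a fold above 2 for UT and p under 0.06 when p183AT was set against pAT). Other alternatives were fits of the compared or of all arrays, a replicate block, quantile normalization, dim clusters left out (at least log2 6 on at least 3 arrays kept), a variance trend and each array left out in turn.

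Replicate numbers are shared between groups in the labels. Deviations of same-numbered arrays correlated above 0.1 in all 3 pairs for mESC p183AT against p183T (0.105 to 0.193) and iMOP p183T against pT (0.147 to 0.321) and in no other comparison.

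Named genes were the 4 Id genes, the E proteins, *Atoh1*, *Bmp4*, at most 3 called members of each other list per comparison and the 5 genes of most like pattern. Members and lists were chosen with earlier results of these data known. *Nanog*, *Pou4f3* and *Col1a1* levels are given outside this rule where not called. P-values set a difference against the spread between samples within groups, pooled over the groups of a fit and, in limma, moderated over clusters. That spread may be partly technical.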

Additional observations from a re-analysis of the deposited data

Results flagged for a closer look

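Differences between the lines in a response were past the threshold in limma (30 arrays, iMOP response minus mESC response) for 10 values. For pT against UT these were *Id2* (-1.52, adjusted p = 0.000327) and *Id1* (0.71, adjusted p = 0.0374). For pAT against pT they were *Id2* (-1.91, adjusted p = 0.0016) and *Id1* (-1.24, adjusted p = 0.0268). For p183AT against p183T they were *Id2* (-1.91, adjusted p = 0.00131), *Id1* (-1.27, adjusted p = 0.0186) and *Id3* (-1.81, adjusted p = 0.0386). For Atoh1 averaged over both backgrounds they were *Id2* (-1.91, adjusted p = 2.27e-06), *Id1* (-1.26, adjusted p = 0.000121) and *Id3* (-1.74, adjusted p = 0.000582). These averaged values use the same arrays as the preceding ones and are no separate evidence.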

How the results depend on the processing

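Of 964 alternative values of single Id genes, 869 kept their direction and side of the threshold, 63 lost the call, 20 gained it and 12 changed sign. The methods' test with adjustment called 0 Id genes for UT, for mESC pT, pAT, p183AT against p183T and p183AT against pT, and for iMOP pT. Each of these had 2 calls with limma. At its own thresholds it called 1 for UT and for pT against UT in each line, and in iMOP cells 2 for pAT and 1 for p183AT against pT. A fit of all 30 arrays called 1 for mESC pT and 2 for iMOP Atoh1 averaged over both backgrounds, which also had 2 with quantile normalization or without dim clusters and 1 (*Id3*) with a replicate block. The replicate block also called *Id3* in the line difference for pAT (-1.66, adjusted p = 0.0484) and changed no other call of an Id gene. With only the compared arrays 1 was called for mESC p183AT against p183T and against pT and for the line differences of pT and of pAT, and quantile normalization gave 1 for the last of these. Leaving out 1 array gave between 1 and 3 calls for the line differences of pAT and of p183AT against p183T, and a lowest count of 1 for that of pT, for mESC pT and for iMOP pT, with a highest of 2. It gave 0 or 1 for p183AT against pT and for the averaged Atoh1 response in iMOP cells. Signs changed only for values not past the threshold. *Id2* in UT was 0.0069 with quantile normalization. With 1 array left out, *Id3* for mESC pT ran from -0.036 to 0.44. In iMOP cells *Id1* ran from -0.26 to 0.11 for pAT, from -0.11 to 0.12 for p183AT against p183T, from -0.34 to 0.019 for p183AT against pT and from -0.11 to 0.070 for the average, and *Id4* for pAT from -0.15 to 0.11. Clusters at the low end of the signal range, such as *Bmp4* in iMOP cells, are limited by background.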
